A study of Rattus norvegicus with 9 samples.

Results

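The comparison set rat aortic vascular smooth muscle cells treated with PDGF-BB against differentiated cells of the same kind that received no treatment, over all miRNAs whose counts passed a filter for low values. It holds 304 of the 762 mature rat miRNAs in the table. A further 198 had a count in some library and did not pass the filter, and 260 had none. Small RNA was sequenced from total RNA of cultured cells, with 3 libraries per group. Platelet-derived growth factor BB (PDGF-BB) was given at 30 ng/ml for 24 h, and the titles call the cells so treated de-differentiated. The protocol also gives 24 h without serum before treatment, and whether the untreated cells were starved too is not stated, so growth factor and starvation cannot be told apart. The remaining 3 of 9 libraries, from cells transduced with a lentivirus for a myocardin-LSD1 construct that edits the histone mark H3K4me2, entered the model to share its estimate of spread. The labels give no rat strain, age or sex, and do not say whether replicates came from separate cultures. The p-values then cover only the variation among these libraries, which may be technical.

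Vascular smooth muscle cells are not terminally differentiated. In the vessel wall they contract, and after injury or in culture PDGF-BB, acting through its receptor tyrosine kinases, drives them to lower contractile genes, divide and migrate. A miRNA is cut from an RNA hairpin as a duplex of 2 arms, named 5p and 3p. Usually 1 arm, the guide, is loaded into Argonaute and the other is degraded, so that the guide is far more abundant, although both arms derive from the same primary transcript. The seed, bases 2 to 8 of the mature strand, pairs with target mRNAs, and miRNAs that share a seed share many predicted targets.

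The mature sequences below are those of miRNAs on which the results turn, from RefSeq, written 5′ to 3′ with the seed in capitals. The first set pairs miRNAs with the same seed, of which some moved and others did not pass the test.
miR-221-3p: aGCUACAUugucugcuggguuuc
miR-222-3p: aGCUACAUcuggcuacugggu
miR-29a-3p: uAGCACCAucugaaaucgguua
miR-29b-3p: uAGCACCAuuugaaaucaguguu
miR-29c-3p: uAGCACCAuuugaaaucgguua
miR-146b-5p: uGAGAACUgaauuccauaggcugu
miR-146a-5p: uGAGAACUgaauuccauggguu
miR-449a-5p: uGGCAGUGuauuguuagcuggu
miR-34a-5p: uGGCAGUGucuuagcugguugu
miR-181b-5p: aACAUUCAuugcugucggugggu
miR-181a-5p: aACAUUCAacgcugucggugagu
The miR-221 and miR-222 strands carry 1 seed, the 3 miR-29 strands 1, and each of the other pairs 1.

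The second set holds miRNAs without a tested partner of equal seed, first 2 that rose and then the arms of the miR-143 and miR-145 hairpins.
miR-7a-5p: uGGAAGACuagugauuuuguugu
miR-222-5p: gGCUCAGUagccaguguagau
miR-145-5p: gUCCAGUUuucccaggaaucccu
miR-145-3p: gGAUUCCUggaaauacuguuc
miR-143-3p: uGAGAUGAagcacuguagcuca
miR-143-5p: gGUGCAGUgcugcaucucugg
The arms of 1 hairpin have different seeds, and so different predicted targets.

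The hairpins of miR-222, miR-503 and miR-21 are shown because the balance of their arms differed between the groups. Capitals mark the 5p and then the 3p arm, and coordinates are those of GRCr8, the build of the RefSeq table, not of the build the counts were made on.
miR-222, chrX:6022621-6022723, plus strand: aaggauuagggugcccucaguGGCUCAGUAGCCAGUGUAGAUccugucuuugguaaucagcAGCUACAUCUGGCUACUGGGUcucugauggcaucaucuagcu
miR-503, chrX:137725856-137725926, minus strand: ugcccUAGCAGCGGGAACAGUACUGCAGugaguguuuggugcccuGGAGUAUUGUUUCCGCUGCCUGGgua
miR-21, chr10:71902600-71902691, minus strand: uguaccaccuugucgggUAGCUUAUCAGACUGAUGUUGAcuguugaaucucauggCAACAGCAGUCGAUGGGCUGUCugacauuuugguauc
In each hairpin the arms face each other across the loop, which is the lower-case stretch between them.

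Library totals were 1783409 to 3850232 counts in differentiated and 1982051 to 3568888 in PDGF-BB cells, and 381 to 425 and 403 to 422 miRNAs had a count. Levels are CPM values (counts scaled to a common library total) with library sizes scaled by TMM factors, given as mean ± SD over n = 3 libraries or per library, and changes are log2 fold changes ± SE from edgeR's quasi-likelihood test, PDGF-BB against differentiated. Each SE and p-value comes from the fit of all 9 libraries, edited ones included, and so is not a measure of the 6 compared libraries alone. A count of 0 allows up to 3 counts, or 0.817 to 1.99 CPM in these libraries, for counting error only. The smooth muscle miRNA miR-143-3p was the most abundant of all miRNAs over the 6 libraries. Of the markers of other cell types, the endothelial miR-126a arms summed to 1760.2 to 2146 CPM in differentiated and 1791 to 1895 in PDGF-BB libraries, and 0 of 2 passed the test. Neural markers summed to 766 to 887 and 817 to 880.4 CPM, led by miR-128-3p, with miR-124 at 0 counts and 0 of 5 passing. Blood cell markers summed to 48.2 to 72.8 and 49.0 to 65.3 CPM, with 0 of 3 passing. In bulk libraries fewer cells of a type and less RNA per cell cannot be told apart.

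In PDGF-BB cells 22 miRNAs were higher and 9 lower than in differentiated cells. The miRNAs that rose included the proliferation-linked miR-221-3p and miR-222-3p, miR-7a-5p, the collagen-targeting miR-29a-3p and miR-29b-3p, and both arms of miR-146b. Those that fell included 3 arms of the contractile miR-143 and miR-145 hairpins. The 31 that passed an adjusted p of 0.05 are 10.2% of the 304 tested, with 7.24% higher and 2.96% lower. An unadjusted p under 0.05 was reached by 74. Values of the 2 groups were fully apart, without overlap, for 107 miRNAs (35.2%), among them all 31 that passed. With 3 against 3 libraries full separation gives an exact permutation p of 0.1, so it carries little weight for a single miRNA. Over all tested miRNAs the median log2 fold change was 0.031. The scaling bears on this split: with library totals in place of TMM factors the median rose by 0.13, and 24 miRNAs passed higher and 2 lower, while with DESeq2 24 passed in each direction.

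Most calls were changes of modest size. 12 of the 31 exceeded 2-fold. Among miRNAs with a mean over 1000 CPM in the 6 libraries, 12 of 64 passed, 5 higher and 7 lower. Between 100 and 1000 CPM 7 of 67 passed, 6 of them higher, and under 100 CPM 12 of 173 passed, 11 of them higher. Some of these 11 had few counts in differentiated cells, as given below. A scarce miRNA that meets the filter only outside differentiated cells has little room to be called lower. The part of the filter in the split under 100 CPM was not tested. The falls among the abundant calls depend on the scaling, since with library totals 0 of the 7 falls over 1000 CPM passed. The miRNAs that rose took 2.86 ± 0.18% of counts in differentiated and 5.36 ± 0.14% in PDGF-BB libraries (SD, n = 3), and those that fell 5.10 ± 0.054% and 4.07 ± 0.068%, which are descriptions, since the same values chose them.

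**Figure D1:**
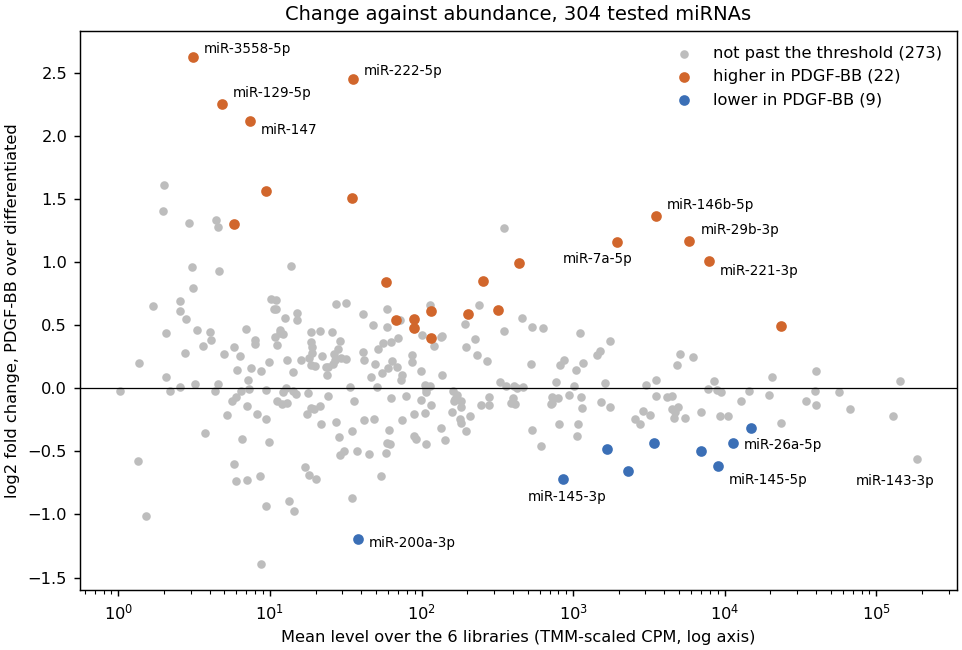
Log2 fold change of each of the 304 tested miRNAs (vertical axis, PDGF-BB against differentiated) against its mean level over the 6 libraries in CPM (horizontal axis, log scale), with the 31 miRNAs past an adjusted p of 0.05 in colour. Rises are spread over most of the range of levels, while 7 of the 9 falls lie above 1000 CPM, of which 0 passed with library totals as the scaling.

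The cluster of miR-221 and miR-222, which share a seed and restrain the cell-cycle inhibitor Cdkn1b, held 3 arms that rose. miR-221-3p was at 6634, 4325 and 4663 CPM in differentiated replicates 1, 2 and 3 and 11585, 10182 and 9712 CPM in PDGF-BB replicates 1, 2 and 3. Each PDGF-BB library lay above each differentiated library, the lowest of which was replicate 2. The change was 1.01 ± 0.16, 2.02-fold, with an edgeR adjusted p of 0.00645, and the call was lost without differentiated replicate 3 (adjusted p = 0.0710). miR-222-3p, at 371, 217 and 292 CPM in differentiated and 667, 591 and 482 CPM in PDGF-BB libraries, changed by 0.99 ± 0.20 (edgeR adjusted p = 0.0131), and its call was lost without differentiated replicates 2 or 3 or PDGF-BB replicates 1 or 2 (adjusted p from 0.0564 to 0.10). Both guides therefore had log2 fold changes close to 1. The ratio of miR-221-3p to miR-222-3p, on the log2 scale, was 4.16 ± 0.16 in differentiated and 4.19 ± 0.13 in PDGF-BB libraries (SD, n = 3).

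Of the scarce strands of these hairpins, that of miR-222 rose. miR-222-5p, printed above in capitals as the first arm of its hairpin, was at 7.94, 14.8 and 8.66 CPM in differentiated and 48.1, 58.4 and 73.2 CPM in PDGF-BB libraries. The groups did not overlap, and the deepest library of each group had the highest value. It rose by 2.45 ± 0.32, 5.46-fold, with an edgeR adjusted p of 0.00280, and the call was kept without any 1 of the 6 compared libraries (adjusted p up to 0.0290). It had 12, 52 and 16 counts in differentiated and 87, 145 and 269 in PDGF-BB libraries, and the part of depth in the rise was not tested. miR-221-5p, at 40.1 ± 10.7 CPM in untreated libraries and 56.1 ± 9.76 CPM with PDGF-BB, had a change of 0.50 ± 0.24 and did not pass (edgeR adjusted p = 0.221). In H3K4me2-edited libraries, for comparison, miR-221-3p was at 2774, 2333 and 2619 CPM, below all 6 others.

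miR-7a-5p, which in other cells restrains growth factor receptor signalling, led the comparison by adjusted p. It was at 1129, 1211 and 1284 CPM in differentiated replicates 1, 2 and 3 and 2634, 2613 and 2861 CPM in PDGF-BB replicates 1, 2 and 3. The libraries of each group lay close together and far from the other group. The rise was 1.16 ± 0.094, 2.24-fold, with an edgeR adjusted p of 7.7e-05, and the call was kept without any 1 of the 6 compared libraries (adjusted p up to 0.00180). RefSeq places the mature strand in 2 hairpins, Mir7-1 on chromosome 17 and Mir8 on chromosome 1, between which its counts cannot be divided. The other arm of the first, miR-7a-1-3p, was at 17.7 ± 2.89 CPM in untreated libraries and 24.8 ± 3.74 CPM with PDGF-BB and did not pass (0.45 ± 0.20, edgeR adjusted p = 0.199). miR-7a-2-3p, the 3p arm numbered for a second hairpin, had 0 counts in the 6 libraries, and miR-7b had too few to test. From which locus the rise of miR-7a-5p came was not tested.

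In the miR-29 family, whose guides target collagen and elastin transcripts, 3 of 6 arms rose. miR-29a-3p, the most abundant miRNA among those that passed, was at 20515, 18392 and 19381 CPM in differentiated and 29336, 28221 and 24646 CPM in PDGF-BB libraries. miR-29b-3p was at 3869, 3089.6 and 3864 CPM in differentiated and 9120.2, 8394 and 6775 CPM in PDGF-BB libraries. Neither overlapped between groups, and miR-29b-3p had the larger change, 1.17 ± 0.20 (edgeR adjusted p = 0.00888) against 0.50 ± 0.12 (edgeR adjusted p = 0.0258). The call of miR-29b-3p was lost without differentiated replicate 3 (adjusted p = 0.0522), and that of miR-29a-3p was lost without differentiated replicates 2 or 3 or PDGF-BB replicates 1 or 2 (adjusted p from 0.0854 to 0.145) and with RLE factors (adjusted p = 0.0597). miR-29a-5p, the scarce strand of the same hairpin, rose by 0.54 ± 0.15 from 55.1 to 79.9 CPM (edgeR adjusted p = 0.0418), a call that was lost without each of the 6 compared libraries in turn (adjusted p from 0.0616 to 0.167), with RLE factors (0.0597) and without the filter (0.0869). The third guide, miR-29c-3p, was at 749 ± 63.3 CPM in untreated libraries and 691 ± 152 CPM with PDGF-BB, with a change of −0.12 ± 0.17 that did not pass (edgeR adjusted p = 0.705). miR-29a and miR-29b-1 lie together on chromosome 4 and miR-29b-2 and miR-29c on chromosome 13. miR-29b-3p comes from both places, while the arms that belong to the chromosome 13 hairpins alone, miR-29b-5p (0.036 ± 0.40), miR-29c-3p and miR-29c-5p (0.18 ± 0.18), did not pass. miR-29b-1-5p, the arm that belongs to the chromosome 4 hairpin of miR-29b alone, had 0 counts in the 6 libraries. From which locus the rise of miR-29b-3p came was not tested.

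miR-146a and miR-146b, induced by NF-kappaB and able to restrain its upstream signalling, have guides with the same seed, of which that of miR-146b rose. miR-146b-5p was at 2647, 1661 and 1558 CPM in differentiated replicates 1, 2 and 3 and 5505, 4282 and 5323 CPM in PDGF-BB replicates 1, 2 and 3. The highest differentiated library, replicate 1, still lay below all PDGF-BB libraries. It rose by 1.37 ± 0.28 (edgeR adjusted p = 0.0131), a call that was lost without differentiated replicates 2 or 3 or PDGF-BB replicate 1 (adjusted p from 0.0596 to 0.0994). miR-146b-3p, at 27.1, 13.7 and 15.1 CPM in differentiated and 58.1, 42.7 and 52.6 CPM in PDGF-BB libraries, rose by 1.51 ± 0.31 (edgeR adjusted p = 0.0131), a call that was lost without differentiated replicates 2 or 3 or PDGF-BB replicate 1 (adjusted p from 0.0511 to 0.0960). miR-146a-5p was at 14611, 15374 and 13830.0 CPM in differentiated and 15588, 14286 and 13303 CPM in PDGF-BB libraries, groups that overlap, with a change of −0.021 ± 0.46 that did not pass (edgeR adjusted p = 0.989). That SE, from the fit of all 9 libraries, is not the spread of the 6 values listed. How the counting split reads between these near-identical guides is not stated. miR-146a-3p, at 0.24 ± 0.44, did not pass. The difference between the 2 miRNAs was not tested. miR-147, known to be induced in activated mouse macrophages, is scarce and had 6, 5 and 6 counts in differentiated and 31, 31 and 21 in PDGF-BB libraries. It rose by 2.11 ± 0.53 (edgeR adjusted p = 0.0324), a call that was lost without differentiated replicates 1, 2 or 3 or PDGF-BB replicates 1 or 2 (adjusted p from 0.0518 to 0.132). miR-155-5p (0.19 ± 0.12, edgeR adjusted p = 0.352), also linked to NF-kappaB, did not pass.

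**Figure D2:**
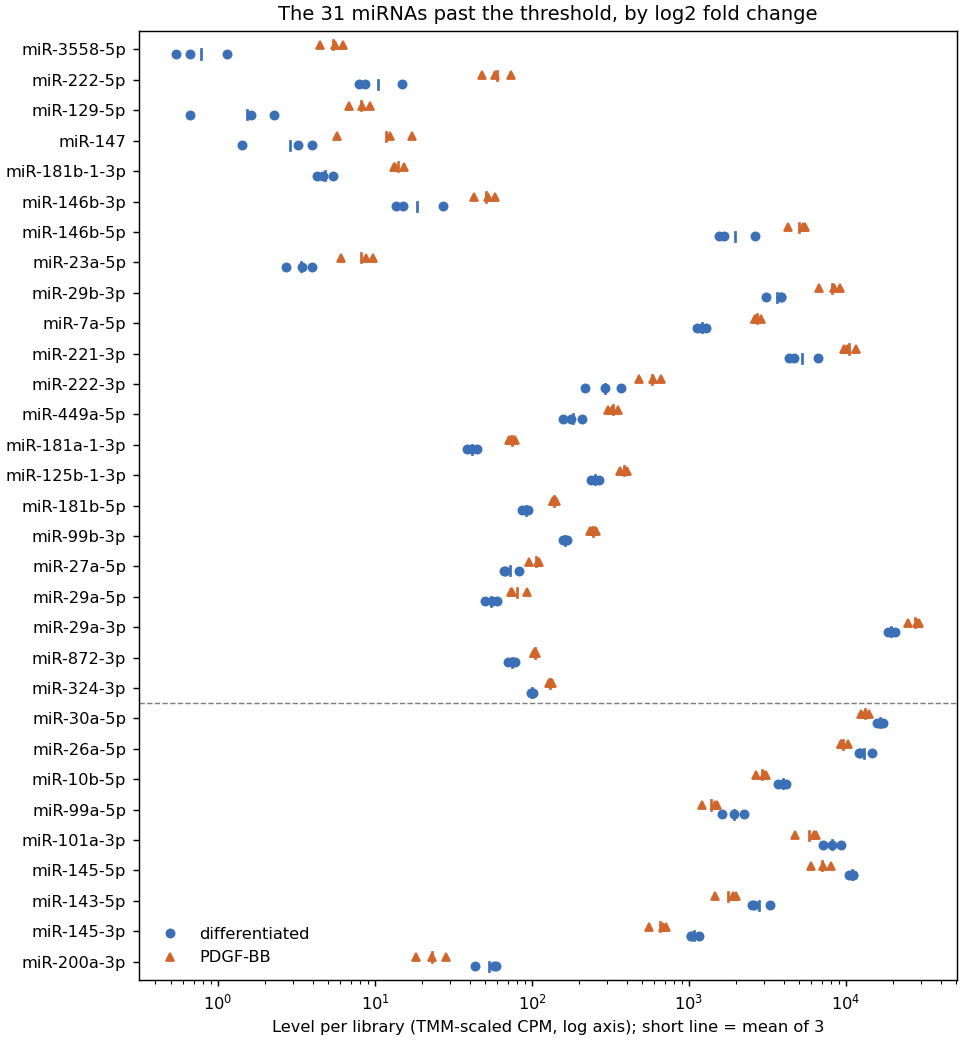
Level of each of the 31 miRNAs that passed (vertical axis, ordered by log2 fold change, with the 9 that fell under the dashed line) in each library in TMM-scaled CPM on a log axis (horizontal). Circles are the 3 differentiated and triangles the 3 PDGF-BB libraries, with a short line at each mean, and in no row do the circles and triangles overlap.

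Of 8 tested arms of the miR-181 family 3 rose, 2 of them scarce strands. miR-181a-1-3p was at 38.4, 41.6 and 44.4 CPM in differentiated replicates 1, 2 and 3 and 78.0, 73.7 and 71.6 CPM in PDGF-BB replicates 1, 2 and 3. The lowest PDGF-BB library exceeded the highest differentiated one. It rose by 0.84 ± 0.13 (edgeR adjusted p = 0.00645), a call that was kept without any 1 of the 6 compared libraries (adjusted p up to 0.0309). miR-181b-1-3p, at 4.63, 4.27 and 5.41 CPM in differentiated and 13.3, 15.3 and 13.3 CPM in PDGF-BB libraries, rose by 1.57 ± 0.30 (edgeR adjusted p = 0.00986), a call that was lost without differentiated replicates 2 or 3 (adjusted p from 0.0513 to 0.0522). The guide miR-181b-5p, at 94.0, 92.2 and 86.6 CPM in differentiated and 142, 137 and 137 CPM in PDGF-BB libraries, rose by 0.61 ± 0.11 (edgeR adjusted p = 0.00917), a call that was lost without differentiated replicate 3 (adjusted p = 0.0916). The strands that belong to the other loci went the other way in value without passing: miR-181a-2-3p at −0.14 ± 0.30, miR-181c-5p at −0.72 ± 0.30, miR-181c-3p at −0.62 ± 0.25 and miR-181d-5p at −0.53 ± 0.24. miR-181a-5p, made by more than 1 hairpin, had a change of 0.048 ± 0.14 and did not pass.

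Among the other rises, 3 rest on few counts in differentiated cells. miR-3558-5p, with no role that is known with confidence, had 1, 4 and 1 counts in differentiated and 10, 11 and 23 in PDGF-BB libraries and the largest change of all, 2.63 ± 0.46 (edgeR adjusted p = 0.00888), with a call that was lost without differentiated replicate 3 (adjusted p = 0.0710). miR-129-5p, best known from brain, had 1, 8 and 3 counts in differentiated and 15, 17 and 34 in PDGF-BB libraries and rose by 2.25 ± 0.42 (edgeR adjusted p = 0.00986), a call that was lost without differentiated replicate 3 (adjusted p = 0.0710). miR-23a-5p, the discarded strand of miR-23a, had 6, 12 and 5 counts in differentiated and 11, 24 and 32 in PDGF-BB libraries and rose by 1.30 ± 0.34 (edgeR adjusted p = 0.0397), a call that was lost without each of the 6 compared libraries in turn (adjusted p from 0.0511 to 0.147) and without the filter (0.0533). No differentiated library reached 10 counts for miR-3558-5p, miR-129-5p or miR-147, and 1 did for miR-23a-5p. The filter turns its minimum of 10 counts into a CPM value at the median library total, so raw counts alone do not show which libraries met it. A miRNA that passes the filter only through other groups has to be higher there. The other arm miR-3558-3p (0.92 ± 0.40) did not pass. miR-449a-5p, which shares its seed with miR-34a-5p and restrains cell-cycle genes, was at 157, 178 and 208 CPM in differentiated and 324, 351 and 305 CPM in PDGF-BB libraries and rose by 0.85 ± 0.17 (edgeR adjusted p = 0.0131), a call that was lost without differentiated replicates 1, 2 or 3 or PDGF-BB replicates 1 or 2 (adjusted p from 0.0511 to 0.0673).

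The remaining rises were under 2-fold. miR-99b-3p, from the cluster with let-7e and miR-125a, rose by 0.59 ± 0.11 (edgeR adjusted p = 0.00958), a call that was lost without differentiated replicate 3 or PDGF-BB replicate 2 (adjusted p from 0.0614 to 0.0888). miR-125b-1-3p, the scarce strand of an abundant hairpin, rose by 0.62 ± 0.15 from 251 ± 15.4 to 385 ± 19.0 CPM (edgeR adjusted p = 0.0324), and this call was lost without each of the 6 compared libraries in turn (adjusted p from 0.0807 to 0.187). miR-872-3p (0.48 ± 0.11, edgeR adjusted p = 0.0258), miR-27a-5p (0.55 ± 0.15, 0.0418) and miR-324-3p (0.39 ± 0.11, 0.0418) also rose. Each of these 3 calls was lost without each of the 6 compared libraries in turn, with adjusted p from 0.0530 to 0.109, 0.0511 to 0.146 and 0.10 to 0.181. Without the filter all 3 were lost too (0.0869, 0.0726 and 0.185), as were those of miR-27a-5p and miR-324-3p with RLE factors (0.0599 and 0.0659). Their other arms, miR-872-5p, miR-27a-3p and miR-324-5p, had changes of 0.018 ± 0.11, 0.27 ± 0.15 and 0.015 ± 0.14 and did not pass.

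miR-143 and miR-145 are transcribed together under serum response factor and myocardin and favour the contractile state, and 3 of their 4 arms fell. miR-145-5p was at 11064, 10436 and 11059.7 CPM in differentiated replicates 1, 2 and 3 and 8068, 7179.7 and 5958 CPM in PDGF-BB replicates 1, 2 and 3. All PDGF-BB libraries lay below all differentiated ones, and the spread was wider among them. The change was −0.62 ± 0.14, 1.54-fold lower, with an edgeR adjusted p of 0.0255, and the call was lost without differentiated replicates 1, 2 or 3 or PDGF-BB replicates 2 or 3 (adjusted p from 0.0734 to 0.10). miR-145-3p, at 1036, 1024 and 1159 CPM in differentiated and 712, 686 and 559 CPM in PDGF-BB libraries, fell by 0.72 ± 0.12 (edgeR adjusted p = 0.00888), a call that was lost without differentiated replicate 3 (adjusted p = 0.0522). miR-143-5p, at 2608, 2511 and 3292 CPM in differentiated and 1899, 1991 and 1463 CPM in PDGF-BB libraries, fell by 0.65 ± 0.16 (edgeR adjusted p = 0.0319), a call that was lost without each of the 6 compared libraries in turn (adjusted p from 0.0513 to 0.126). The guide miR-143-3p was at 224017, 200881 and 235891 CPM in differentiated and 160501, 161348 and 125195 CPM in PDGF-BB libraries, groups that do not overlap, with a change of −0.56 ± 0.18 that did not pass (edgeR adjusted p = 0.0928). The 4 arms share 1 primary transcript and are not independent. With library totals as the scaling the falls of miR-145-5p and miR-143-5p were −0.49 and −0.52 and no longer passed, while miR-145-3p did, at −0.59.

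The fall that was largest in fold was that of miR-200a-3p, which restrains Zeb transcription factors in epithelia. It was at 58.9, 43.5 and 57.4 CPM in differentiated and 23.2, 28.2 and 18.2 CPM in PDGF-BB libraries, low levels in each library, and changed by −1.20 ± 0.30 (edgeR adjusted p = 0.0324), a call that was lost without each of the 6 compared libraries in turn (adjusted p from 0.0627 to 0.158). Its cluster partners miR-200b-3p (−1.40 ± 0.47) and miR-429 (−0.97 ± 0.33) did not pass, each with an edgeR adjusted p of 0.101, although their groups did not overlap. The epithelial marker list as a whole, of which 1 of 6 tested arms fell, summed to 75.1 to 106 CPM in differentiated and 38.4 to 53.6 CPM in PDGF-BB libraries, with miR-205 at 0 counts. Of the 6 arms 2 had values above 0, miR-203a-3p at 0.69 and miR-200c-3p at 0.20. Both were scarce, with 35 and 19 counts over the 6 libraries, and neither passed. The part of such cells in the fall of the sum was not tested.

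The other 5 falls were abundant miRNAs with small changes. miR-26a-5p and miR-101a-3p both target the histone methyltransferase Ezh2. miR-26a-5p was at 14686, 12094 and 12258 CPM in differentiated and 10351, 9267 and 9237 CPM in PDGF-BB libraries and changed by −0.44 ± 0.11 (edgeR adjusted p = 0.0324), a call that was lost without each of the 6 compared libraries in turn (adjusted p from 0.0854 to 0.182). miR-101a-3p was at 8168, 7108 and 9301 CPM in differentiated and 6463, 6209.8 and 4757 CPM in PDGF-BB libraries and changed by −0.50 ± 0.13 (edgeR adjusted p = 0.0418), a call that was lost without differentiated replicates 1 or 3 or PDGF-BB replicates 1, 2 or 3 (adjusted p from 0.0511 to 0.146). In both, the groups do not overlap. miR-30a-5p, at 17094, 15834 and 16752 CPM in differentiated and 14086, 13221 and 12538 CPM in PDGF-BB libraries, changed by −0.32 ± 0.084 (edgeR adjusted p = 0.0418), a call that was lost without each of the 6 compared libraries in turn (adjusted p from 0.0854 to 0.189). miR-10b-5p, encoded among the Hox genes, went from 3948 ± 233 to 2916 ± 227 CPM (−0.44 ± 0.097, edgeR adjusted p = 0.0216), a call that was lost without differentiated replicates 1, 2 or 3 or PDGF-BB replicates 1 or 2 (adjusted p from 0.0591 to 0.0906). miR-99a-5p (−0.48 ± 0.13, edgeR adjusted p = 0.0481), of a family that targets mTOR, fell too, a call that was lost without differentiated replicates 2 or 3 or PDGF-BB replicates 1, 2 or 3 (adjusted p from 0.0917 to 0.132). With library totals none of these 5 passed, at −0.30, −0.37, −0.19, −0.30 and −0.35 in the order given, so their falls depend on the scaling, and without the filter miR-30a-5p (adjusted p = 0.0927) and miR-99a-5p (0.0533) did not pass. Of all 9 falls 2 passed with library totals, those of miR-145-3p and miR-200a-3p.

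Of the 10 most abundant miRNAs of the 6 libraries 0 passed. In order of level these were miR-143-3p, miR-125b-5p, miR-21-5p, let-7c-5p, miR-16-5p, miR-31a-5p, let-7b-5p, let-7f-5p, let-7a-5p and miR-199a-3p. miR-125b-5p was at 140019 ± 10360.1 CPM in untreated libraries and 145800.0 ± 14785 CPM with PDGF-BB with a change of 0.058 ± 0.13, and miR-21-5p, a miRNA of vessel injury, at 139368 ± 15511 CPM in untreated libraries and 119595 ± 11862 CPM with PDGF-BB with a change of −0.22 ± 0.15. The other 7 after these had log2 fold changes from −0.27 ± 0.13 for miR-199a-3p to 0.14 ± 0.082 for miR-31a-5p, with edgeR adjusted p of 0.221 and 0.335. The 5 miRNAs next outside the threshold were miR-30a-3p (−0.33 ± 0.096, edgeR adjusted p = 0.0611), miR-3075 (1.33 ± 0.39), miR-18a-5p (0.63 ± 0.19), miR-204-5p (1.27 ± 0.40) and miR-196b-5p (−0.46 ± 0.14, edgeR adjusted p = 0.0810). The call just inside it was miR-99a-5p.

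Apart from miR-145, of which both arms fell, the tested other arms of the miRNAs that fell did not pass. They were at −0.31 ± 0.14 for miR-10b-3p, −0.43 ± 0.32 for miR-101a-5p and −0.34 ± 0.16 for miR-99a-3p, besides miR-143-3p and miR-30a-3p given above, all with the sign of their partner. miR-26a-3p, at 0.45 ± 0.34, had the opposite sign and a level of 3.33 ± 0.640 CPM in untreated libraries and 4.71 ± 1.5 CPM with PDGF-BB. miR-200a-5p, miR-449a-3p and the 3p arms of miR-129 had too few counts to test.

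The arms of a hairpin were compared next, since both come from 1 transcript. For 117 hairpins both arms were tested, and in 76 of them the log2 fold changes of the arms had the same sign. Of the 117 less abundant arms 11 rose (9.4%) and 2 fell, and of the 111 distinct more abundant arms 8 rose (7.21%) and 6 fell, against 7.24% and 2.96% of all tested miRNAs. The 11 include miR-3558-5p and miR-23a-5p, with few counts in differentiated cells, and the limit of the filter given above holds for such arms. The median log2 fold change was 0.14 for the less abundant and −0.021 for the more abundant arms. Both arms passed in 5 hairpins, each time in the same direction, which were those of miR-222, miR-29a, miR-146b, miR-181b-1 and miR-145. The less abundant arm alone passed in 8 hairpins and the more abundant alone in 9.

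**Figure D3:**
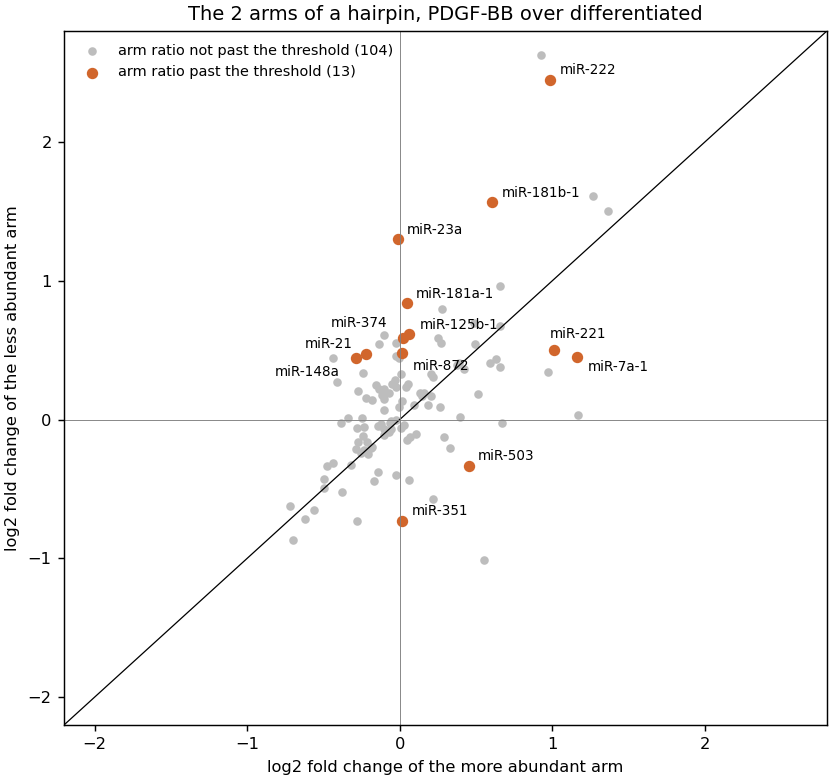
Log2 fold change of the less abundant arm (vertical axis) against that of the more abundant arm (horizontal axis) for the 117 hairpins with both arms tested, PDGF-BB against differentiated. Coloured points are the 13 hairpins whose arm ratio passed, and they lie off the diagonal line of equal change, 9 of them above it.

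The ratio of the arms within a library does not depend on how libraries are scaled. It was tested as log2 of 5p over 3p counts, each plus 0.5, with limma over all 117 hairpins, and 13 passed an adjusted p of 0.05 (11.1%), with 28 at an unadjusted p under 0.05. In 9 of the 13 the less abundant arm was relatively higher in PDGF-BB cells and in 4 relatively lower. The smallest adjusted p was that of miR-503, a hairpin of the X-linked cluster with miR-322 whose guide restrains cell-cycle genes. Its 5p arm made up 81.8, 82.2 and 79.6% of the hairpin's counts in differentiated and 90.0, 88.3 and 86.7% in PDGF-BB libraries. The groups did not overlap, and the log2 ratio differed by 0.81 ± 0.13 (limma adjusted p = 7.3e-04), a call that was kept without any 1 of the 6 compared libraries (adjusted p up to 0.00847). Neither arm passed alone, with miR-503-5p at 0.45 ± 0.38 and miR-503-3p at −0.33 ± 0.39, SEs of the fit of all 9 libraries. With the 6 compared libraries alone neither arm passed. So the balance of the 2 strands printed above differed where the test of each strand did not pass.

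In the miR-222 hairpin the 5p arm made up 2.10, 6.38 and 2.88% in differentiated and 6.73, 9.0 and 13.2% in PDGF-BB libraries, a log2 difference of 1.51 ± 0.33 (limma adjusted p = 0.00572), a call that was lost without differentiated replicate 1 or PDGF-BB replicate 2 (adjusted p from 0.0501 to 0.0694). The neighbouring hairpin of miR-221 differed in the opposite direction, with 0.782, 0.738 and 0.760% against 0.574, 0.524 and 0.491% of counts on the 5p arm and a log2 difference of −0.53 ± 0.16 (limma adjusted p = 0.0402), a call that was lost without differentiated replicates 1, 2 or 3 or PDGF-BB replicates 2 or 3 (adjusted p from 0.0641 to 0.118). Hence the scarce strand was relatively higher in one and relatively lower in the other of 2 hairpins that lie side by side. For miR-21 the 3p arm is scarce, and the 5p share was 99.6, 99.7 and 99.5% and 99.4, 99.3 and 99.5%. The log2 difference was −0.69 ± 0.14 (limma adjusted p = 0.00230), with miR-21-3p relatively higher in PDGF-BB cells, a call that was lost without PDGF-BB replicate 2 (adjusted p = 0.0501), while neither miR-21-5p nor miR-21-3p (0.47 ± 0.23) passed alone.

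**Figure D4:**
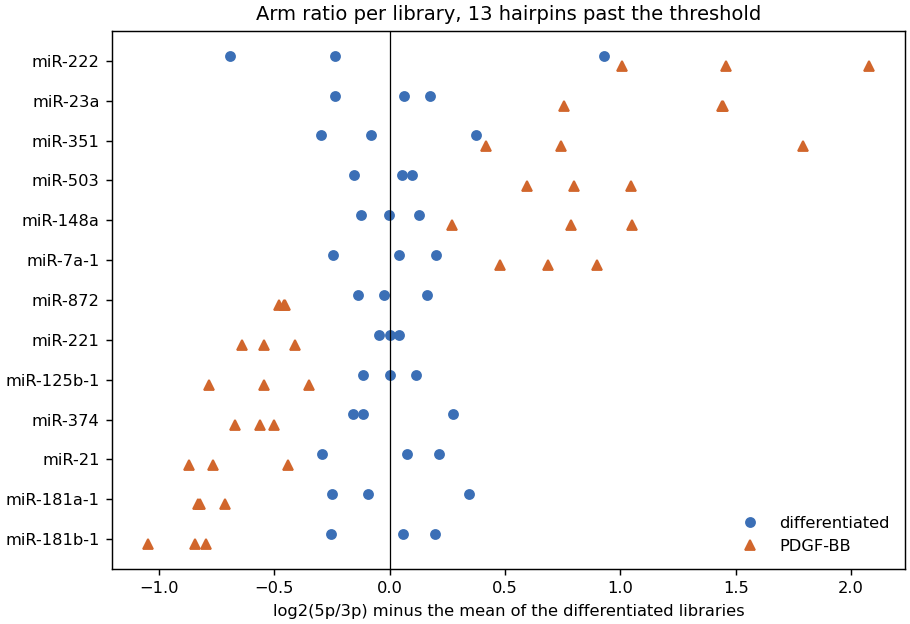
Log2 ratio of 5p to 3p counts in each library, less the mean of the differentiated libraries (horizontal axis), for the 13 hairpins whose ratio passed (vertical axis). Circles are the 3 differentiated and triangles the 3 PDGF-BB libraries, which lie to the right for 6 hairpins, among them miR-222 and miR-503, and to the left for 7, among them miR-21 and miR-181a-1.

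For miR-181a-1 the 5p share was 90.9, 88.0 and 86.8% and 82.7, 81.5 and 81.4% (−0.79 ± 0.15, limma adjusted p = 0.00230), a call that was kept without any 1 of the 6 compared libraries (adjusted p up to 0.0339). Its 5p strand is also made by another hairpin, as are those of miR-125b-1, miR-7a-1 and miR-181b-1, so a ratio there can differ through the other locus. The log2 differences were −0.56 ± 0.14 for miR-125b-1, 0.69 ± 0.18 for miR-7a-1 and −0.89 ± 0.26 for miR-181b-1. Of the other hairpins, the 5p share of miR-374 was 79.8, 74.9 and 74.4% and 69.6, 68.7 and 67.0% (−0.58 ± 0.14, limma adjusted p = 0.0145), and that of miR-872 was 84.2, 81.2 and 82.5% and 77.7, 77.4 and 77.7% (−0.46 ± 0.13, limma adjusted p = 0.0249). In both, the 3p strand was the scarcer and relatively higher in PDGF-BB cells. The ratios of miR-23a (1.21 ± 0.32), miR-148a (0.70 ± 0.21) and miR-351 (0.99 ± 0.31) also passed, the first on the few counts of miR-23a-5p given above. The ratio of miR-351 did not pass with a pseudocount of 5 (adjusted p = 0.0568), with the 6 compared libraries alone (0.0971) or as an edgeR interaction of arm and group (0.162), and that of miR-148a not with the 6 libraries alone (0.0678). The interaction also did not pass for miR-125b-1 (0.0517) and miR-181b-1 (0.0558), and the pseudocount of 5 ended the call of miR-181b-1 (0.137). The calls of the last 8 hairpins named were each lost without PDGF-BB replicate 2, and all but that of miR-351 without PDGF-BB replicate 3. Without differentiated replicate 1 all but that of miR-23a were lost, without replicate 2 those of miR-7a-1 and miR-181b-1, and without replicate 3 those of miR-125b-1, miR-23a, miR-872, miR-148a and miR-351. The highest adjusted p without 1 compared library was 0.0729 for miR-374, 0.0694 for miR-125b-1, 0.103 for miR-23a, 0.115 for miR-7a-1, 0.113 for miR-872, 0.115 for miR-181b-1, 0.160 for miR-148a and 0.273 for miR-351.

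Counts were then summed over miRNAs with the same seed, which counts the strands that share predicted targets together. RefSeq gave a sequence for 276 of the 304 miRNAs (90.8%), in 218 seed groups, 34 of them of 2 or more miRNAs, and miR-200a-3p, miR-23a-5p and miR-99a-5p are among those not matched. 20 sums passed the edgeR test (9.17%), 15 of them sums of a single miRNA. Of the 5 with several members 4 rose and 1 fell. The sum of miR-221-3p and miR-222-3p, seed gcuacau, was at 5500.3 ± 1319 CPM in untreated libraries and 11073 ± 1061 CPM with PDGF-BB (1.01 ± 0.16, edgeR adjusted p = 0.00580), a call that was lost without differentiated replicate 3 (adjusted p = 0.0636). That of the 3 miR-29 guides rose by 0.61 ± 0.13 (edgeR adjusted p = 0.0216), a call that was lost without differentiated replicates 2 or 3 or PDGF-BB replicates 1 or 2 (adjusted p from 0.0701 to 0.103). The sum of miR-99a-3p and miR-99b-3p rose by 0.45 ± 0.10 (edgeR adjusted p = 0.0230), a call that was lost without differentiated replicates 1, 2 or 3 or PDGF-BB replicates 1 or 2 (adjusted p from 0.0701 to 0.147), and that of miR-181a-1-3p and miR-181c-3p by 0.50 ± 0.12 (edgeR adjusted p = 0.0267), a call that was lost without each of the 6 compared libraries in turn (adjusted p from 0.0701 to 0.121). miR-26a-5p and miR-26b-5p together had a change of −0.33 ± 0.078 (edgeR adjusted p = 0.0267), the 1 fall, a call that was lost without each of the 6 compared libraries in turn (adjusted p from 0.0801 to 0.164) and under scaling by library totals (0.146). With the miRNAs under the filter added to the sums, those of miR-26 (0.0718), miR-99-3p (0.0742) and miR-181a-1-3p (0.0886) did not pass.

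In 3 seed groups a scarcer member rose beside an abundant one that did not pass, and the sum did not pass. The sum of miR-146a-5p and miR-146b-5p was at 16560.0 ± 1021 CPM in untreated libraries and 19429 ± 1441 CPM with PDGF-BB, a change of 0.23 ± 0.20 (edgeR adjusted p = 0.534). The guides with the seed of miR-181 changed by 0.11 ± 0.12 (edgeR adjusted p = 0.639), and those with the seed of miR-34a and miR-449a by −0.026 ± 0.14 (edgeR adjusted p = 0.962). In the last, miR-34a-5p at 13263 ± 1391 CPM in untreated libraries and 12337 ± 1852 CPM with PDGF-BB outnumbers miR-449a-5p at 181 ± 25.8 CPM in untreated libraries and 326 ± 22.9 CPM with PDGF-BB. The sums with the seeds of miR-30 (−0.28 ± 0.081, edgeR adjusted p = 0.0572) and miR-101 (−0.43 ± 0.13, edgeR adjusted p = 0.0653) lay just outside the threshold.

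Some loci make the same or a closely related guide. Strands of such loci were set against each other within a library. These pairs were chosen after their values were seen and have no test. The log2 ratio of miR-125b-1-3p to miR-125b-2-3p was 1.87 ± 0.15 in differentiated and 2.94 ± 0.14 in PDGF-BB libraries (SD, n = 3). For miR-181a-1-3p over miR-181a-2-3p it was 2.45 ± 0.28 and 3.44 ± 0.14. For miR-146b-5p over miR-146a-5p it was −2.94 ± 0.41 and −1.52 ± 0.21, and for miR-29b-3p over miR-29a-3p −2.44 ± 0.13 and −1.77 ± 0.090. In each of these pairs the groups did not overlap and the first strand was relatively higher in PDGF-BB libraries. miR-29b-3p comes from both chromosomes, so its ratio is not that of 1 locus to another. On the shared guides, miR-125b-5p (0.058 ± 0.13) and miR-181a-5p (0.048 ± 0.14) did not pass.

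Hairpins within 10000 bases of each other were also counted together, where at least 1 of their tested arms passed. Clusters without a call were left out, so these counts are descriptions and do not test whether calls lie together. Of all tested miRNAs 7.24% were higher and 2.96% lower. The count is incomplete, since it covers only hairpins and matched strands in the RefSeq annotation used. miR-181a-1 and miR-181b-1, whose strands lie side by side on chromosome 13, had no hairpin entry there, and unmatched miRNAs such as miR-200a-3p are left out too. Of the 4 tested arms of miR-222 and miR-221, at chrX:6022621-6023290 of GRCr8, 3 rose. Of the 3 tested arms of miR-29a and miR-29b-1, at chr4:60617955-60618414, 3 rose, counting miR-29b-3p, which is shared with chromosome 13. Another arm there, miR-29b-1-5p, had 0 counts in the 6 libraries and was not tested. Of the 4 tested arms of miR-29b-2 and miR-29c, at chr13:109098831-109099446, 1 rose, the same miR-29b-3p. The cluster of miR-449c and miR-449a, at chr2:46402375-46404000, had 1 tested arm, miR-449a-5p, which rose. At chr18:57369983-57371453, the locus of miR-145 and miR-143, 3 of 4 fell. In the cluster of miR-99b, let-7e and miR-125a at chr1:67350064-67350759, 1 of 6 tested arms rose, miR-99b-3p, which is too few to set apart from that share, while its guide miR-99b-5p was at 0.25 ± 0.10. In the cluster of miR-24-2, miR-27a and miR-23a at chr19:40859455-40859843, 1 of 5 tested arms rose, the scarce strand miR-27a-5p. The scarce strand miR-23a-5p rose too but is unmatched and not in this count. The guides miR-27a-3p (0.27 ± 0.15), miR-23a-3p (−0.011 ± 0.094) and miR-24-3p (−0.033) did not pass, nor did miR-24-2-5p (0.28).

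By lists from the smooth muscle literature, 0 of 7 muscle arms rose and 3 fell, with a median log2 fold change of −0.65. Of 28 arms linked to proliferation, injury or de-differentiation 8 rose and 1 fell, with a median of 0.40. Of 17 arms that culture studies report as responding to PDGF in smooth muscle, among them those of miR-221, miR-24, miR-146a, miR-132 and miR-15b, 1 rose, miR-221-3p, and 3 fell, all from miR-143 and miR-145, with a median of −0.021. The NF-kappaB list had 3 of 6 arms higher (median 0.80), and the miR-23/27/24 clusters 2 of 10 (median 0.13). The NF-kappaB count includes miR-147 and the miR-23/27/24 count miR-23a-5p. Both had few counts in differentiated cells, so the limit of the filter given above holds for them. The miR-30 family had 1 of 11 arms lower (median −0.18), and miR-26 with miR-101 2 of 7 (median −0.22). In the miR-17/92 and paralogous clusters, which favour division, 0 of 14 arms passed, with a median of 0.29 and 12 of 14 values above 0. The let-7 family (0 of 20, median 0.024) and the miR-15/16 family (0 of 12, median −0.081), both restraining proliferation, held no arm that passed. These lists overlap and were chosen with results of these data known. Over all tested miRNAs 7.24% rose, 2.96% fell and the median was 0.031, so that a count such as 1 of 17 higher or 1 of 11 lower is near the share of all miRNAs.

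The count of calls depended on single libraries. It was 16, 12 and 3 without differentiated replicates 1, 2 and 3, and 12, 12 and 18 without PDGF-BB replicates 1, 2 and 3. Without edited replicates 1, 2 and 3, which enter only through spread, scaling and filter, it was 53, 24 and 32, and with the 6 compared libraries alone 42. miR-7a-5p held in every fit, as did 2 scarce strands, miR-181a-1-3p and miR-222-5p, and no other call did. Without 1 of the 6 compared libraries at a time, 9 of the 31 calls held in 5 or 6 fits and 10 in none. Of the 31, 17 held in each of the 7 settings that keep all compared libraries, where they were tested there.

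**Figure D5:**
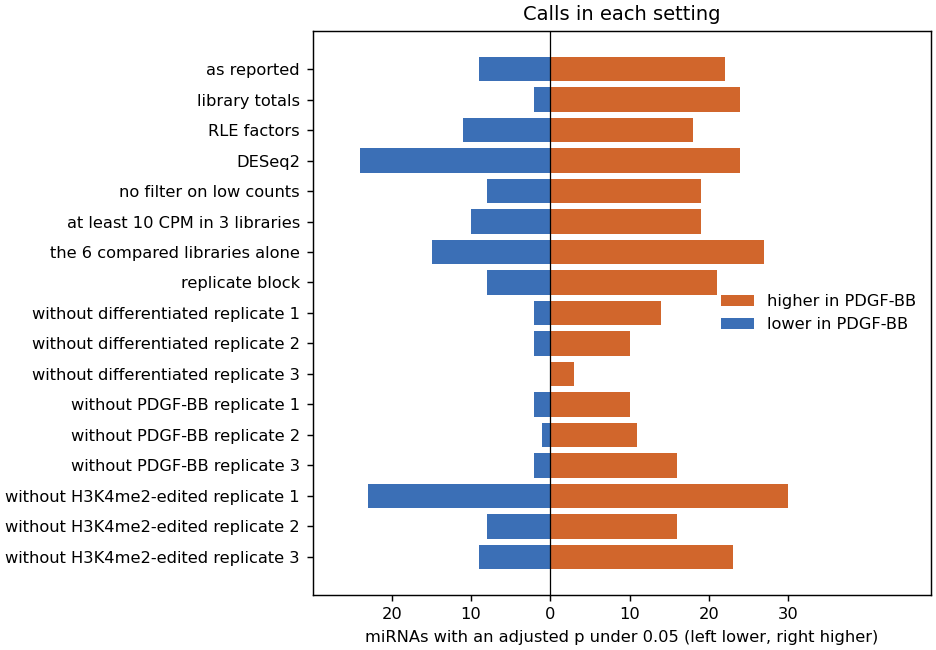
Number of miRNAs past an adjusted p of 0.05 (horizontal axis), lower in PDGF-BB cells to the left of 0 and higher to the right, under each setting (vertical axis), with the reported fit first. The counts run from 3 without differentiated replicate 3 to 53 without edited replicate 1, around the 31 of the reported fit.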

How the data were processed

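A miRNeasy kit gave the total RNA, from which QIAseq small RNA libraries were made and read as single reads on a NextSeq, per the labels' protocols. The authors deposited whole-number counts for each mature miRNA of the rat, not normalized. Rnor_6.0 is the build that the submitters' processing notes name. No source used here gives the aligner, the counter or any use of molecular identifiers, so counting limits cover counting error only.

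A quasi-likelihood model of edgeR 4.0.16 (R 4.3.3) was fitted to all 9 libraries with 1 mean for each group. It used TMM factors, 0.847 to 1.03 in the compared libraries, and the edgeR filter with a minimum of 10 counts, set as CPM at the median library total. The filter left out 0.0127% of the counts of the 6 compared libraries. P-values were adjusted by Benjamini-Hochberg over all 304 miRNAs, or all seed sums, at a threshold of 0.05. Arm ratios were tested with limma 3.58.1 over all hairpins. DESeq2 1.42.0 served as an alternative. Replicates differed beyond sampling noise, and none was merged. The chi-square per degree of freedom was 15.0 to 58.4 between replicates of the compared groups. Between the edited libraries, which share in the estimate of spread, it was 328 to 576. Every miRNA past the threshold is named, with full values for those of the largest change, smallest p or highest level, besides the 10 most abundant, the 5 next outside the threshold and the other arms. The miRNAs and lists were chosen with earlier results of these data known. Seeds and hairpins come from RefSeq on GRCr8.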

Additional observations from a re-analysis of the deposited data

How the results depend on the processing

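The count of 31 miRNAs became 26 with library totals, 29 with RLE factors, 27 without the filter, 29 with at least 10 CPM in 3 libraries, 42 with the 6 compared libraries alone and 48 with DESeq2, and it ran from 3 to 53 when 1 library was left out. The 13 arm ratios became 11 to 16 in other settings and 2 to 15 without 1 library. The 20 seed sums became 32 with the 6 compared libraries alone, 16 to 22 in other settings, and 2 to 41 without 1 library. Over all named values and settings, 221 values kept their direction and no longer passed. For calls lost outside those fits the cause was not tested. Depth limits the scarce strands most, since at 3 counts a library reads 0.817 to 1.99 CPM.

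Turned values were all of miRNAs that did not pass in either fit. With library totals let-7b-5p was at 0.0014, let-7a-5p at 0.030, let-7f-5p at 0.11, miR-16-5p at 0.10 and miR-23a-3p at 0.12, and with the 6 compared libraries alone miR-23a-3p was at 0.0072. With RLE factors and with DESeq2 the values were −0.0087 and −0.0076 for miR-181a-5p, −0.036 and −0.034 for miR-872-5p, −0.038 and −0.035 for miR-324-5p, −0.0091 and −0.012 for miR-29b-5p, and −0.026 and −0.026 for miR-374-5p, and −0.031 with both for miR-351-5p. Without 1 library the values ran from −0.019 to 0.14 for miR-125b-5p, −0.057 to 0.0086 for let-7f-5p, −0.11 to 0.015 for miR-16-5p, −0.079 to 0.060 for miR-23a-3p, −0.079 to 0.20 for miR-181a-5p, −0.036 to 0.077 for miR-872-5p, −0.078 to 0.070 for miR-324-5p, −0.27 to 0.31 for miR-29b-5p, −0.13 to 0.15 for miR-374-5p and −0.14 to 0.17 for miR-351-5p.

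With the replicate number as a replicate block 29 miRNAs, 16 arm ratios and 20 seed sums passed. The calls of miR-147 (adjusted p = 0.0607), miR-29a-5p (0.0628), miR-101a-3p (0.0668) and miR-324-3p (0.0607) did not hold in it. The deviations of same-numbered libraries correlated at 0.50, −0.0092 and −0.064, and not every library correlated best with its own number, so the numbers were not taken as pairs. Differently numbered libraries correlated at −0.53 to 0.61, the highest for PDGF-BB replicate 3 with differentiated replicate 2, the deepest library of each group. The replicates numbered 1, at 0.50, were the shallowest. Structure is thus shared across the groups, and the part of depth in it was not tested.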
